A study of Drosophila melanogaster with 6 samples.

Results

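Small heat shock proteins are chaperones that carry an alpha-crystallin domain and hold unfolding proteins without using ATP. In Drosophila many of their genes lie side by side at cytological position 67B on the left arm of the third chromosome. These genes are switched on by heat shock factor after heat and other stress, and several of them also respond to ecdysone, the steroid hormone of metamorphosis, around the time the puparium forms. The genes described here are Hsp22, Hsp23, Hsp26, Hsp27, Hsp67Ba, Hsp67Bb and Hsp67Bc, chosen by name as heat shock genes of 67B. Whether each of them encodes an alpha-crystallin domain was not examined. Of these 7 genes, 6 were found by symbol among the 17490 genes measured. The row of Hsp67Bb was found under the name CG4456, for which RefSeq lists Hsp67Bb as an older symbol.

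The RNA came from leg discs dissected at 0 h after pupae formation (APF), from animals of the genotype R32D05-lexA>lexAopGFP. Discs were dissociated with collagenase and papain, and GFP+ myoblasts, the precursors of the leg muscles, were isolated by fluorescence-activated cell sorting (3 replicates). The input was a sample of all leg disc cells of the same genotype, myoblasts included (3 replicates), so that a difference from the input understates the difference from the other disc cells. The label of the sorted cells rests on the R32D05 driver, and intact discs were not analysed here. Values are the authors' RPKM, read numbers scaled by the exon length of the gene and by a total for each library. As described under the processing, that total was not a plain sum of reads.

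All 6 myoblast markers examined were called higher in the GFP+ libraries, and 6 of 7 disc epithelium markers and 4 of 4 tested tendon markers were called lower. The exception was shg, the E-cadherin gene, which was not called. Input replicate 1 stood apart, with a summed RPKM of 963726 against 481720 to 668659 in the other libraries. The 6 fat body markers summed to 25.6 RPKM in this library and to at most 1.48 in each other library. The 5 salivary gland glue genes summed to 389.9 RPKM in input replicate 3 and to at most 4.73 in each other library, and Sgs4 and Sgs5 were listed at 0 in those 5. Results that could rest on either library are given below with and without it.

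Transcripts of 67B were abundant in both groups. The 7 genes together took 1.38%, 1.30% and 1.39% of all RPKM in the myoblast libraries and 1.61%, 2.29% and 2.49% in the input libraries. Hsp23, Hsp26 and Hsp27 made up 96.3% to 99.6% of this amount. The share was higher in every input library than in every myoblast library. Counted as reads, from 656019 to 1089195 reads per library fell on the 7 genes, between 0.98% and 1.79% of the reads on annotated genes.

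Compared with the input, Hsp67Ba and Hsp67Bc fell 7.41- and 7.77-fold in the myoblasts, whereas Hsp23, Hsp26 and Hsp27 were 1.60-, 1.77- and 1.25-fold lower and did not pass the test. Genes that reached 1 RPKM in 3 or more libraries were tested with limma on log2(RPKM + 1). Called genes are those with an adjusted p below 0.05 that also differed more than 1.5-fold. Of the 7 genes, 5 passed the filter and all 5 had an RPKM over 1 in each library. Of these, 2 were called lower and 0 higher, against 14.8% called lower and 5.52% called higher among the 7533 genes tested. Every myoblast library lay below every input library for all 5, a pattern found in 21.5% of tested genes. Over all tested genes, 1118 were called lower and 416 higher, a split that became 924 and 180 when libraries were brought to an equal sum of RPKM and 797 and 809 under quantile normalization. In whole tissue, fewer cells of a type and less RNA per cell cannot be told apart.

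**Figure D1:**
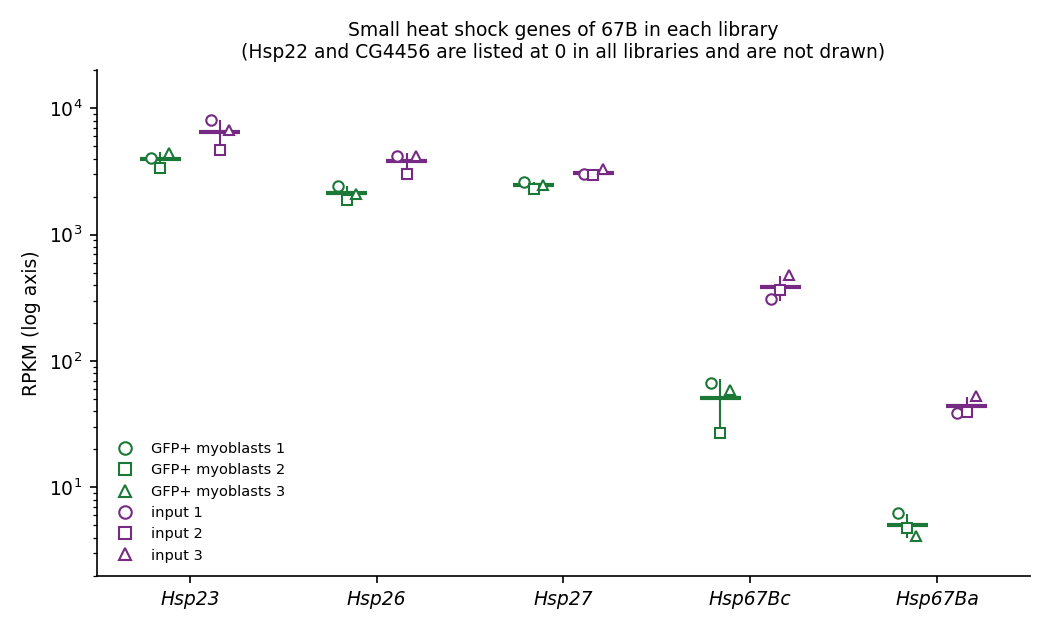
RPKM on a log axis of the 5 small heat shock genes with reads, in each GFP+ myoblast library (green) and each input library (purple). Horizontal bars are group means and vertical bars 1 SD (n = 3). Hsp23, Hsp26 and Hsp27 lie at 1868 RPKM or more in every library with narrow gaps between the groups, while Hsp67Bc and Hsp67Ba lie far lower in the myoblasts than in the input.

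Hsp23 (FBgn0001224), a cytoplasmic small heat shock protein, had the highest level of the genes described here. Its RPKM was 4055, 3392 and 4447 in myoblast replicates 1 to 3 and 8012, 4664 and 6702 in input replicates 1 to 3. By mean RPKM over all genes it ranked 5 in the input and 30 in the myoblasts. The mean was 3965 ± 534 RPKM in the myoblasts and 6459.6 ± 1687 RPKM in the input (SD, n = 3). The groups did not overlap, but the gap between myoblast replicate 3 and input replicate 2 was small beside the range of the input libraries. The log2 fold change was -0.68 with an SE of 0.367 and a 95% interval from -1.52 to 0.17 (limma, adjusted p = 0.263).

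Hsp26 (FBgn0001225), another cytoplasmic member, was the next most abundant in the input. It measured 2441, 1868 and 2086 RPKM in the myoblast libraries and 4177, 3015 and 4188 RPKM in the input libraries. Its mean in the myoblasts was 56.2% of that in the input, the lowest of the 3 abundant genes. The log2 fold change was -0.82 with an SE of 0.303 and a 95% interval from -1.52 to -0.12 (limma, adjusted p = 0.103). The interval lies below 0, yet the difference did not survive the adjustment over 7533 genes.

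Hsp27 (FBgn0001226), which is found mainly in the nucleus, varied least. Its RPKM was 2633, 2301 and 2467 in the myoblasts and 3018, 2965 and 3283 in the input. Mean levels were 2467 ± 166 and 3089 ± 171 RPKM (SD, n = 3), and the lowest input library exceeded the highest myoblast library. The log2 fold change of -0.32 had a 95% interval from -0.96 to 0.31 (limma, adjusted p = 0.492), which reaches from a 1.94-fold lower level in the myoblasts to a slightly higher one.

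The calls of Hsp23 and Hsp26 changed with the processing, while their directions did not. With libraries brought to an equal sum of RPKM, Hsp23 (adjusted p = 0.0411) and Hsp26 (adjusted p = 0.0315) were called lower by limma, and quantile normalization called the same genes (adjusted p = 0.0381 and 0.0266). With equal sums the log2 fold changes were close to those given above, at -0.64 for Hsp23 and -0.79 for Hsp26, and their SEs were smaller, at 0.181 and 0.207. Under quantile normalization the median gene itself shifted, from a log2 fold change of 0.01 to 0.16. Without input replicate 1, which had the highest Hsp23 value, the log2 fold change of Hsp23 was -0.50 and was not called (limma, adjusted p = 0.175), while that of Hsp26 was -0.75 and was called (limma, adjusted p = 0.0398). Hsp26 was also called without the trend in the variance (limma, adjusted p = 0.0464). Neither gene was called without input replicate 3, with log2 fold changes of -0.63 for Hsp23 and -0.74 for Hsp26 (limma, adjusted p = 0.475 and 0.284). Over all alternatives the adjusted p from limma ran from 0.0381 to 0.612 for Hsp23 and from 0.0266 to 0.386 for Hsp26. Hsp27 was called under 0 of the 15 alternatives tried, in which its log2 fold change ran from -0.46 to -0.28.

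Hsp67Bc (FBgn0001229) was called lower in the myoblasts. Its protein is a fly counterpart of human HSPB8 and works with the BAG-family co-chaperone starvin in the removal of misfolded proteins through autophagy. It measured 67.3, 27.1 and 59.2 RPKM in the myoblasts and 309.7, 366 and 475 RPKM in the input. The lowest input library lay far above the highest myoblast library, and myoblast replicate 2 was the lowest of all. The log2 fold change was -2.96 with an SE of 0.347 and a 95% interval from -3.76 to -2.16, a 7.77-fold lower level (limma, adjusted p = 0.000606). Behind these values stand 2259 to 5590 reads per myoblast library and 12673 to 31780 per input library.

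Hsp67Ba (FBgn0001227) had the lowest listed RPKM of the genes with reads. Its RPKM was 6.24, 4.76 and 4.13 in the myoblasts and 39.1, 39.2 and 53.1 in the input. The mean of 5.05 ± 1.08 in the myoblasts was 11.5% of the mean of 43.8 ± 8.09 in the input (SD, n = 3). The log2 fold change was -2.89 with an SE of 0.238 and a 95% interval from -3.44 to -2.34, a 7.41-fold lower level (limma, adjusted p = 0.000102). The interval of Hsp67Ba lies within that of Hsp67Bc, and neither overlaps the interval of Hsp23, Hsp26 or Hsp27.

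The calls of Hsp67Ba and Hsp67Bc held under all 15 alternatives, with log2 fold changes from -3.10 to -2.74 and from -3.20 to -2.56. Without input replicate 1, the library with fat body transcripts, they were -2.96 and -3.10. Without input replicate 3, the library with salivary gland transcripts, they were -2.75 and -2.79. Markers of epithelium, tendon and neurons were mostly lower in the myoblasts as well. Those of other cell types were mixed. Called lower were 1 of 3 tested hemocyte, 2 of 3 glia and 1 of 2 trachea markers, and 0 were called higher. The 7 epithelium markers summed to 57.0 to 76.1 RPKM in the myoblasts and 189.8 to 309.8 RPKM in the input, the 5 tendon markers to 1.35 to 1.48 and 68.9 to 77.3 RPKM, and the 5 neuron markers to 2.94 to 4.47 and 13.0 to 52.4 RPKM. Most of the epithelium sum in the myoblasts was shg, and the leg disc genes Dll, dac, al and wg were at or below 1.19 RPKM there. The part of the cells with these markers in the lower levels of Hsp67Ba and Hsp67Bc was not tested. For a single gene, the exact permutation test over the 20 arrangements of 3 against 3 libraries gave p = 0.1 (two-sided) for each of the 5 genes, the smallest value this design allows.

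Hsp22 and CG4456 were listed at 0 in all 6 libraries. Hsp22 encodes the mitochondrial member of the family. According to the annotation all 1900 exon bases of Hsp22 (FBgn0001223) also belong to exons of CG4456 (FBgn0001228) on the same strand, out of 2109 exon bases of CG4456. Reads that fall on exons of more than 1 gene are often left uncounted, and the counting settings are not given in the sources used here. Among the 433 annotated genes whose exon bases are all shared with another gene of the same strand, 420 (97.0%) were listed at 0 in all 6 libraries, against 4699 of 11768 genes (39.9%) that share none. Hsp22 belongs to the 433 genes, but CG4456 does not, since part of its exon bases is not shared. Whether Hsp22 and CG4456 were transcribed cannot be read from their zeros, and the part of the counting in them was not tested. None of the other 5 genes shares an exon base with a gene on its own strand.

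Ratios between genes of the same library do not depend on how libraries were scaled. The ratio of Hsp26 to Hsp27 was 0.927, 0.812 and 0.846 in the myoblasts and 1.38, 1.02 and 1.28 in the input. Hsp26 thus lay below Hsp27 in each myoblast library and above it in each input library, a difference of -0.50 ± 0.145 (SE) on the log2 scale (two-sided exact permutation test, p = 0.1, the smallest possible). The ratio of Hsp23 to Hsp27 was 1.54, 1.47 and 1.80 in the myoblasts and 2.65, 1.57 and 2.04 in the input, and the groups overlapped (exact permutation test, p = 0.2).

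Relative to Hsp27, Hsp67Bc stood at 2.55%, 1.18% and 2.40% in the myoblasts and at 10.3%, 12.3% and 14.5% in the input. Hsp67Ba stood at 0.237%, 0.207% and 0.168% of Hsp27 in the myoblasts and at 1.30%, 1.32% and 1.62% in the input. Both genes were therefore lower in the myoblasts relative to Hsp27 as well, by -2.66 ± 0.385 and -2.80 ± 0.178 (SE) on the log2 scale. The ratio of Hsp67Bc to Hsp67Ba was 10.8, 5.70 and 14.3 in the myoblasts and 7.92, 9.34 and 8.94 in the input, where the groups overlapped (exact permutation test, p = 0.8). In all, 11 ratios were compared, and 3 against 3 libraries cannot give an exact p under 0.1 for any of them.

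**Figure D2:**
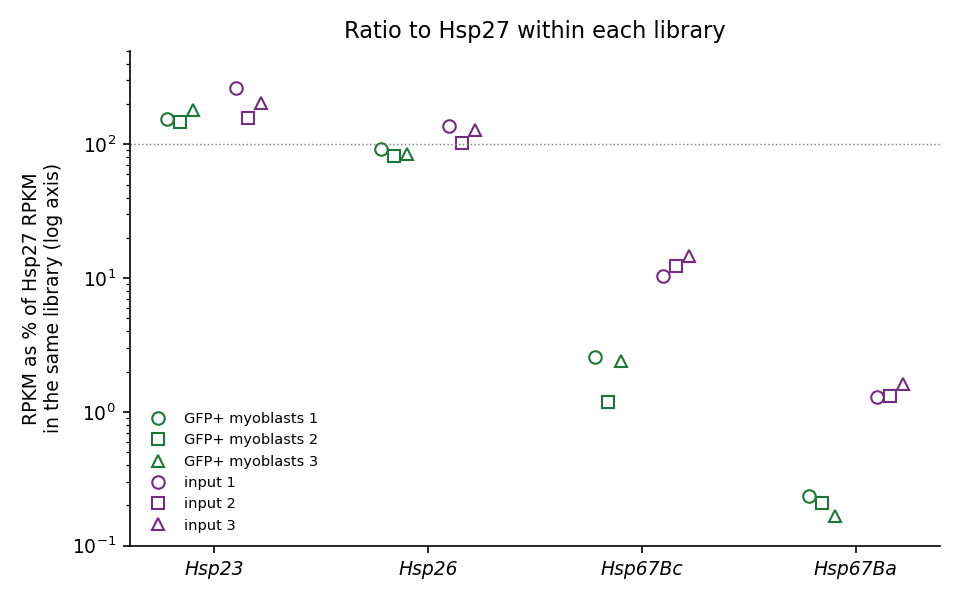
RPKM of 4 small heat shock genes as a percentage of the RPKM of Hsp27 in the same library, on a log axis, for each GFP+ myoblast library (green) and each input library (purple). The dotted line marks the level of Hsp27. Hsp26 crosses the line between the groups, Hsp23 overlaps between them, and Hsp67Bc and Hsp67Ba are separated by a wide gap.

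The 7 genes lie within 14184 bases of chromosome 3L (dm6, 9371511 to 9385694). From left to right the order is Hsp67Bc (9371511 to 9372497, minus strand), CG4456 (9372722 to 9374964, plus) and Hsp22 (9372931 to 9374964, plus). Then follow the small heat shock gene CG4461 (plus), Hsp26 (9376418 to 9377427, minus), Hsp67Ba (9377802 to 9379534, minus), Hsp23 (9381882 to 9382765, plus) and Hsp27 (9384063 to 9385694, plus). Hsp23, Hsp26, Hsp27, Hsp67Ba and Hsp67Bc are each annotated with a single exon block. The called genes and the abundant genes were interleaved, since Hsp67Ba, at 43.8 RPKM on average in the input, lies between Hsp26 at 3793 RPKM and Hsp23 at 6459.6 RPKM.

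The long noncoding gene CR43481 runs antisense to Hsp67Ba and shares 1316 of its 1733 exon bases. It measured at most 1.38 RPKM in any library. As the strand setting of the counting is not given in the sources used here, reads of this pair cannot be told apart. Of the 575 annotated genes whose exon bases are all shared on either strand, 555 (96.5%) were listed at 0 in all 6 libraries. These include the 433 same-strand genes given above. Whether reads on the shared bases of Hsp67Ba were left uncounted, which would lower its RPKM and alter its ratios to other genes, was not tested. CG4461 measured 0, 0 and 0.661 RPKM in the myoblasts and 0, 1.34 and 1.01 RPKM in the input, below the filter. Just right of Hsp27, the pseudogene CR43482 measured 3385, 2996 and 2967 RPKM in the myoblasts and 4218, 3797 and 4312 RPKM in the input. Its log2 fold change of -0.40 was not called (limma, adjusted p = 0.423), and its ratio to Hsp27 of 1.20 to 1.30 in the myoblasts overlapped that of 1.28 to 1.40 in the input.

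None of the 3 nearest genes on either side of 67B was called. On the left these are Klp67A, a kinesin gene (log2 fold change 0.45), CG4452 (-0.02) and the ferredoxin gene Fdx1 (-0.19), and on the right CR43483 (0.54), CR43482 and CG4080 (0.10). Signs of CG4452, Fdx1, CR43483 and CG4080 turned under some alternatives.

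**Figure D3:**
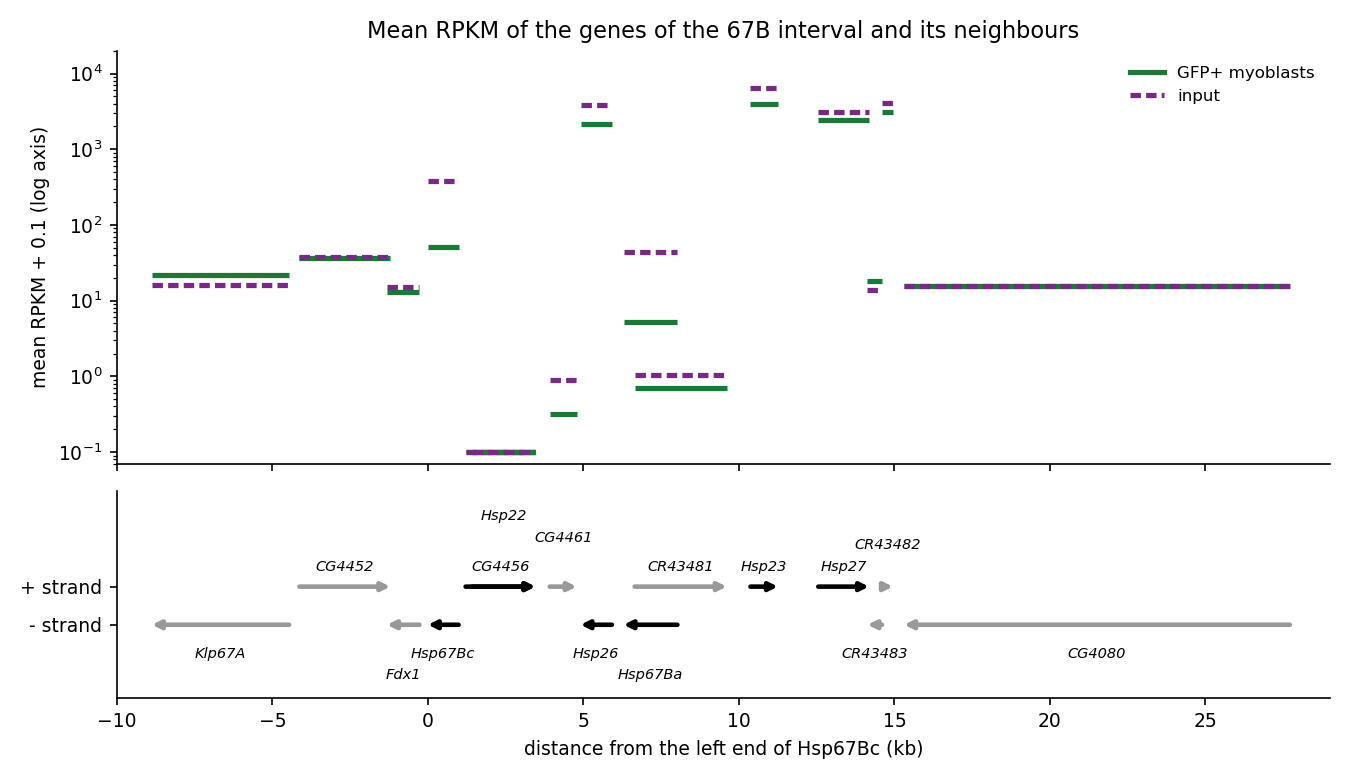
Mean RPKM plus 0.1 on a log axis (top) of the 67B genes and their neighbours in GFP+ myoblasts (solid green) and input (dashed purple), and gene positions by strand (bottom) as distance in kb from the left end of Hsp67Bc. Black arrows are the 7 genes described and grey arrows the others. Hsp67Bc and Hsp67Ba show the widest gaps between the groups, and CG4456 and Hsp22 lie at 0.

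Of the other small heat shock genes examined, CG14207, also named HspB8, measured 115, 95.1 and 88.6 RPKM in the myoblasts and 121, 93.1 and 82.9 RPKM in the input. The groups overlapped, with a log2 fold change of 0.02 and a 95% interval from -0.46 to 0.50 (limma, adjusted p = 0.964), whose sign turned when single libraries were left out. The gene l(2)efl measured at most 0.497 RPKM in the myoblasts and 0, 2.39 and 3.19 RPKM in the input, while CG7409 and CG13133 were listed at 0 in all libraries. Of the 5 genes of this group, CG4461 included, only CG14207 passed the filter.

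Of 12 other genes of the heat shock response tested, 3 were called lower in the myoblasts and 0 higher, against 14.8% called lower among all tested genes. The 12 include Hsf, which encodes heat shock factor (log2 fold change -0.45), and Hsp83 (0.37), neither of them called. Only Hsp83 had a log2 fold change above 0. The median log2 fold change of the 12 was -0.70 against 0.01 over all tested genes. Called were stv, Hsp70Aa and Hsp70Ab. The 12 genes include several nearly identical copies of Hsp70, so they are not 12 separate measurements. The widest difference was that of stv, which encodes starvin, the co-chaperone that acts with Hsp67Bc. It measured 3.07, 3.22 and 3.24 RPKM in the myoblasts and 22.6, 59.0 and 49.4 RPKM in the input, with a log2 fold change of -3.31 ± 0.353 (SE; limma, adjusted p = 0.000364). Its call held under all 15 alternatives.

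The Hsp70 genes, which encode the main heat-inducible chaperone, measured 1074 RPKM or more in each library. Hsp70Aa measured 1169.7, 1074 and 1322 RPKM in the myoblasts and 1859, 2947 and 2941 RPKM in the input (log2 fold change -1.09, limma, adjusted p = 0.0316), and Hsp70Ab had nearly the same values. Hsp70Bb, at 1716 to 2276 RPKM in the myoblasts and 2705 to 3788 RPKM in the input, was not called (log2 fold change -0.73). The copies of Hsp70 are nearly identical in sequence, so the division of reads among them is uncertain. The count of 3 rested on the libraries, with 10 called lower without input replicate 1 and 1, stv, without any other single library. Whether the levels of Hsp70 or of the 67B genes changed during dissociation and sorting was not tested.

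Of 14 constitutive chaperone genes tested, 1 was called higher and 1 lower, 6 had log2 fold changes below 0 and 8 above, and the median was 0.18. Their difference from the genes of the heat shock response was not tested. The one called higher was Trap1, the mitochondrial Hsp90 gene, at 29.1, 33.9 and 28.3 RPKM in the myoblasts and 12.0, 20.3 and 19.2 RPKM in the input (limma, adjusted p = 0.0491). The one called lower was Gp93, the Hsp90 gene of the endoplasmic reticulum, at 171, 194 and 189 RPKM in the myoblasts and 267, 321 and 316 RPKM in the input (limma, adjusted p = 0.0262). Hsc70-4, the most abundant of this group, measured 2337, 2342 and 2506 RPKM in the myoblasts and 1709.8, 1733 and 1833 RPKM in the input and was not called (log2 fold change 0.45). Hsc70-3, the Hsp70 gene of the endoplasmic reticulum, was not called either (log2 fold change -0.52). Both calls were lost when any 1 myoblast library was left out, and the split depended on the scaling, with 3 called higher and 0 lower under quantile normalization and 1 higher and 0 lower with equal sums.

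Genes of the ecdysone response were examined because several 67B genes answer to this hormone. Of the 15 transcriptional regulators tested, 2 were called lower and 0 higher, a share near the 14.8% called lower among all tested genes, and the median log2 fold change was 0.12. Under quantile normalization 1 was called lower and 2 higher. With the replicate block 2 were lower and 1 higher, and without input replicate 2 there was 1 in each direction. The genes called lower were Eip93F (log2 fold change -2.16, limma, adjusted p = 0.00881) and the nuclear receptor gene Hr39 (log2 fold change -0.87, limma, adjusted p = 0.038). Eip93F lost its call under quantile normalization (log2 fold change -1.11, limma, adjusted p = 0.0981), and its log2 fold change was -4.49 with a pseudocount of 0.1. Hr39 lost its call under several alternatives. The zinc finger gene crol and the bZIP gene vri, the most abundant of the others, were not called (log2 fold changes 0.32 and 0.35).

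Of the 11 ecdysone effector genes tested, 6 were called lower and 0 higher, against 14.8% called lower among all tested genes. The median log2 fold change was -1.90. All 6 called genes were Imp genes. Not called among the 11 were Eip71CD (log2 fold change -0.53), Eip63E (-0.26), Dronc (-0.58), Eip55E (0.18) and E23 (0.61). Eip63F-1 and Cyp18a1 did not pass the filter. Eip63F-1 was listed at 0 in the myoblasts and at 0.708, 3.86 and 2.25 RPKM in the input. Cyp18a1 measured 0.132, 0 and 0 RPKM in the myoblasts and 0.918, 6.34 and 3.25 RPKM in the input. Without the filter 7 of 13 effector genes were called lower. The count of 6 held without input replicate 1 and without input replicate 3. ImpE2 measured 35.0, 16.9 and 22.9 RPKM in the myoblasts and 1681, 2196 and 2104 RPKM in the input (log2 fold change -6.31, limma, adjusted p = 1.16e-05). ImpL1, ImpE1 and ImpL2 followed, with log2 fold changes of -6.00, -5.02 and -3.50. The Imp genes are known as ecdysone-inducible transcripts of imaginal discs, and the part of the lower epithelium markers in their values was not tested. Hsp67Ba and Hsp67Bc had log2 fold changes between those of ImpL2 and the median effector.

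**Figure D4:**
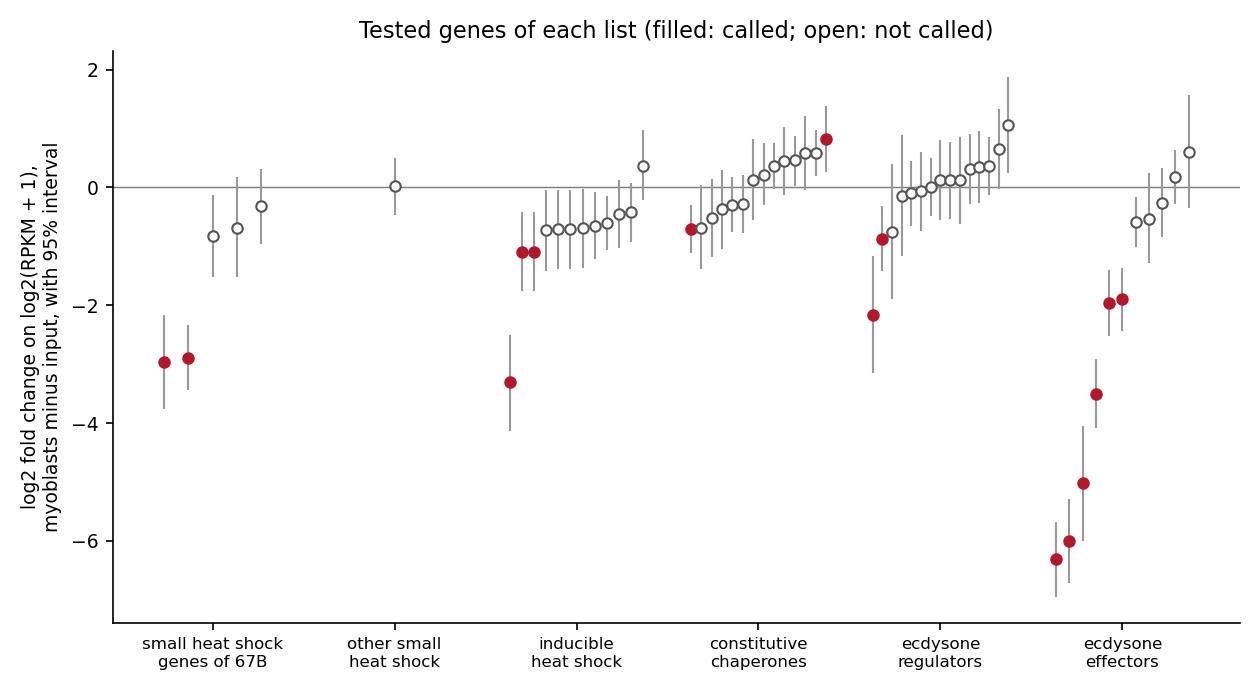
Log2 fold changes on log2(RPKM + 1) of the tested genes of each list, myoblasts minus input, with 95% intervals (limma). Filled points are called genes and open points are not called. The list labelled inducible heat shock also holds Hsf and Hsp83. Values below 0 are lower in the myoblasts. The 67B genes form a called pair near -3 and an uncalled group between -1 and 0.

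The tested genes outside 67B whose levels most resembled the mean standardised log2 level of the 5 small heat shock genes were Jafrac1 (r = 0.990), CG30096 (r = 0.990), Krn (r = 0.986), PICK1 (r = 0.985) and Calr (r = 0.983). These are Pearson correlations over the 6 libraries, which fall into the sorted and the input group. Any gene clearly lower in the myoblasts therefore scores highly, and the lower levels of the genes picked follow from this choice. Jafrac1, a peroxiredoxin gene, measured 125, 106 and 114 RPKM in the myoblasts and 209, 186 and 206 RPKM in the input. Calr, which encodes the chaperone calreticulin of the endoplasmic reticulum, measured 570.3, 541 and 598 RPKM in the myoblasts and 876, 816 and 909 RPKM in the input. Jafrac1 was called lower (limma, adjusted p = 0.0123), as were CG30096, Krn, which encodes a ligand of the EGF receptor, and PICK1, while Calr was not (limma, adjusted p = 0.0697). Of these 4 calls, that of Krn held under all 15 alternatives. The others were each lost under several, equal sums among them, where the adjusted p from limma was 0.0617 for Jafrac1, 0.24 for CG30096 and 0.101 for PICK1. Under quantile normalization the log2 fold change of PICK1 was -0.39 in place of -1.21.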

How the data were processed

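The authors sequenced oligo(dT)-primed mRNA libraries of 3 replicates of GFP+ myoblasts and 3 of the input. Per the methods and the submitters' processing notes, reads were filtered with Cutadapt, aligned to dm6 with HISAT2 2.1.0, counted with HTSeq 0.11.2 on Ensembl release 70, turned into RPKM with Cufflinks and tested with DESeq2. The deposited RPKM table was used here. The counts and the authors' comparisons were not used. Strand and overlap settings of the counting are not given in the sources used here.

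The 7533 of 17490 genes that reached 1 RPKM in 3 or more libraries were taken as log2(RPKM + 1) and compared with limma 3.58.1 (R 4.3.3; empirical Bayes trend, Benjamini-Hochberg adjustment over all 7533, all 6 libraries, no covariates). Fold changes on this scale understate changes of low genes. Called means an adjusted p below 0.05 with a more than 1.5-fold difference. Python 3.11.15 with pandas 2.3.3, scipy 1.17.1 and matplotlib 3.10.9 was used for exact permutation tests, ratios and plots. Positions and exon lengths are from Ensembl release 115 on dm6, which matched 17216 genes by identifier and is not the authors' release.

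RPKM times exon length was a whole multiple of 1 step per library, to within 0.05 reads for 97.4% to 98.6% of genes under 100 reads. The reads so recovered on annotated genes numbered 77704076, 74663826 and 60011329 in the myoblast libraries and 45603729, 50623866 and 60920335 in the input libraries. In input replicate 1 they came to 110% of the total that the step implies and elsewhere to 83.8% to 92.7%, so that total is not a plain sum of reads. Median-of-ratios size factors of the deposited RPKM were 1.02 in all 6 libraries. The alternative with this scaling therefore nearly repeated the main fit, with 1533 genes called in place of 1534, and is no separate check. Reads are not independent molecules, so they bound counting error only.

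The labels do not say whether replicates came from separate animals or dissections. The limma p-values set each difference against the spread between these samples, which may not be the spread between animals. Named were the 7 genes, the other small heat shock genes, up to 4 genes of each other list (called genes by size of change, then by mean RPKM), the genes of the interval with 3 neighbours on each side, and the 5 genes most alike. Genes and lists were chosen with earlier results of these data known. The 15 alternatives covered the pseudocount, filter, scaling, replicate block, trend, array weights and leaving out each library. Whether replicate numbers pair the samples is not known, and no pairing term was used in the main fit. Correlations of the deviations from group means were 0.345, 0.262 and 0.007 for same-numbered libraries. For myoblast and input libraries of different number they ran from -0.326 to 0.156. No sequence is printed.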

Additional observations from a re-analysis of the deposited data

How the results depend on the processing

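Hsp67Ba and Hsp67Bc were called under all 15 alternatives, and Hsp27 under none. The number of small heat shock genes called rose from 2 to 4 with libraries brought to an equal sum and under quantile normalization. Among all tested genes 1534 were called, 920 with a mean RPKM over 5 as filter, and 903 to 2342 when single libraries were left out, with 2342 without input replicate 1. Called inducible heat shock genes numbered 3, but 1 without the filter, with libraries rescaled to the same sum and under quantile normalization, and 1 to 10 with single libraries left out. Called constitutive chaperones numbered 2, and 1 without the filter, with a mean RPKM over 5, with rescaled sums and without the variance trend, 3 (all higher) under quantile normalization, 2 (both lower) with array weights, and 0 to 6 with single libraries left out. Called ecdysone regulators numbered 2, and 1 under the same 4 settings that gave 1 chaperone, 3 under quantile normalization and with the replicate block, and 1 to 4 with single libraries left out. The cause was not tested.

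With the replicate number as a block, 1668 genes were called in place of 1534, and no call of a small heat shock gene changed. Whether the numbers pair the samples is not known.

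Signs turned only for genes that were not called. The log2 fold change of CG14207 was -0.09, -0.01 and -0.10 without myoblast replicate 1, input replicate 2 and input replicate 3. It ran up to 0.17 with other libraries left out. That of CG4452 was 0.01 with rescaled sums and 0.02, 0.04 and 0.14 without these same libraries, and -0.23 without input replicate 1. Without input replicate 1, Fdx1 was at 0.00, CR43483 at -0.05 and CG4080 at -0.33, and CG4080 was at -0.18 with array weights. With other libraries left out, these 3 genes reached -0.47, 0.86 and 0.39. Of 493 values for 33 named genes, 410 kept direction and side of the threshold, 63 lost and 9 gained a call, and 11 changed sign.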
